A study of Homo sapiens with 22 samples.

Results

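The genes described were 9 targets of the YAP, TGF-beta and AP-1 pathways: CCN1, CCN2, ANKRD1, AXL, THBS1, FOSL1, FOS, JUN and EGR1. For each gene, every peak of the 12 deposited lists was taken whose summit lay in the gene body or within 50 kb of it, by the RefSeq gene table of GRCh38.p14. These windows held 469 of the 341123 peaks of all lists. Each of the 9 windows had at least 1 RAD21 peak in every RAD21 list, while 10.0% to 18.9% of the windows of all protein-coding genes had none. Peak lists show where a protein was bound and not whether a gene was transcribed, so the pathway names are background knowledge and were not checked by expression.

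The libraries were chromatin immunoprecipitations (ChIP-seq) from hTERT RPE-1, an immortalised human retinal pigment epithelial line, in a study of how NIPBL affects cohesin on chromatin. RAD21, a subunit of cohesin, was precipitated from clone NIPBL-A2 (mCherry-P2A-FKBP12(F36V)-NIPBL) and from clone NIPBL-D7 (mGreenLantern-P2A-FKBP12(F36V)-NIPBL). Each clone was sampled after 24 h of DMSO, the solvent, and after 4 h and 24 h of dTAGV-1, a small molecule that directs proteins tagged with FKBP12(F36V) to degradation. STAG1 and STAG2 came from D7 with no treatment named in the labels, PDS5A came from D7 after 24 h of DMSO, HA came from A2, and CTCF and WAPL came from wild-type cells. Both clones carry the tag in all of their groups, DMSO included, and each is a single clone. Every group was 1 library; differences between groups therefore lack replication, no p-value was computed, and intervals are 95% intervals for counting error only. The NIPBL level after dTAGV-1 was not measured by these lists. The RAD21 lists held 25763 to 39713 peaks, with an average background pileup of 1.87 to 4.05 fragments as the measure of depth.

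YAP is a coactivator that the Hippo kinases keep out of the nucleus; with TEAD factors it switches on genes such as CCN1, CCN2 and ANKRD1. TGF-beta acts through SMAD factors and drives the change of retinal pigment epithelial cells to a mesenchymal state. AP-1 is a dimer of FOS and JUN family proteins that often binds the same enhancers as TEAD, and FOS, JUN and EGR1 are immediate-early genes, switched on within minutes of a growth signal. Cohesin is loaded and driven along DNA by NIPBL, extrudes loops, and is held at sites of CTCF, which is why RAD21 peaks with and without CTCF are kept apart here.

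Just upstream of each of the 7 genes with a listed start lay a peak of cohesin or its partners in at least 1 list. Some were with CTCF and some without, and the first AXL start was reached by PDS5A alone. The share of all promoters reached by any list was not counted, so nothing is read from the 7. For PDS5A alone, a summit lay within 1 kb of the start in 36.8% of protein-coding genes. The sequences of AXL and JUN are not printed, while those of the other 5 genes are shown. They are the 250 bases before the start site from RefSeq, build GRCh38.p14, written 5′ to 3′ on the strand of the gene. Capitals mark GGAATG, the core bound by TEAD, CAGACA, a SMAD motif, and the CArG box, bound by serum response factor; TGACTCA, the AP-1 motif, was searched as well. Both strands were searched.
ANKRD1, chr10:90921088-90921337, minus strand: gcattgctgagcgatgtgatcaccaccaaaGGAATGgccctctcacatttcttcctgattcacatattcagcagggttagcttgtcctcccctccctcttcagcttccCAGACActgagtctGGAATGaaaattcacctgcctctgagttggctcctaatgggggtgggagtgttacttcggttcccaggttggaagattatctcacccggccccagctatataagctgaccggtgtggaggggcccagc
CCN2, chr6:131951373-131951622, minus strand: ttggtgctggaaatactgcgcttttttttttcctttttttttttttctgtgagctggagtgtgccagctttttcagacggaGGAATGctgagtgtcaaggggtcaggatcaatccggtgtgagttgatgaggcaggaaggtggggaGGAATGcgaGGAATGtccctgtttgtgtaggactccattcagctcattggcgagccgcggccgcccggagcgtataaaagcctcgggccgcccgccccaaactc
THBS1, chr15:39580829-39581078, plus strand: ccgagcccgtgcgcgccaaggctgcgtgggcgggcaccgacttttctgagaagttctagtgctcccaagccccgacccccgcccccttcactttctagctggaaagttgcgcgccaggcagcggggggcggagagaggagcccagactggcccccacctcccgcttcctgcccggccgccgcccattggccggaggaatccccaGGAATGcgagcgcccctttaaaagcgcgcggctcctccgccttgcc
FOS, chr14:75278578-75278827, plus strand: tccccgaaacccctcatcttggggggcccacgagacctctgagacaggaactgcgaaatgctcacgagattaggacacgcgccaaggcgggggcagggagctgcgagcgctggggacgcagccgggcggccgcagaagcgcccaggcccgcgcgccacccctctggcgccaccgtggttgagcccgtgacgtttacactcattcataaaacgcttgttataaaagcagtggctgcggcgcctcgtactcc
EGR1, chr5:138465229-138465478, plus strand: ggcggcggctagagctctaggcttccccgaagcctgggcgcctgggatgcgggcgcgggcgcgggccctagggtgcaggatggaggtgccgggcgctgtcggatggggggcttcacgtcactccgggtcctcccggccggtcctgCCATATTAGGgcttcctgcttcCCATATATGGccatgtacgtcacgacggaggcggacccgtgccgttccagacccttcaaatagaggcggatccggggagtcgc

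Of the 9 genes, 7 were in the promoter table, which did not list CCN1 and FOSL1; for these either end of the gene was used as a start. GGAATG lay upstream of ANKRD1 at −220 and −128 bp, of CCN2 at −169, −104 and −95 bp, of THBS1 at −46 bp and, on the other strand, of the second start of AXL at −212 bp. The same letters were in 11.9% of 34961 promoters of the same length. CAGACA lay upstream of ANKRD1 at −142 bp and upstream of the second AXL start, against 13.6% of all promoters. EGR1 held 2 CArG boxes, at −105 and −83 bp, against 1.16% of all promoters with at least 1. TGACTCA was upstream of 0 of the 7 genes and in 4.17% of all promoters. A match is a description of these letters, and absence says nothing of a factor's binding elsewhere.

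The windows held more RAD21 peaks than the median window of a protein-coding gene. A window held a median of 6 RAD21 peaks in either DMSO list, with a range of 3 to 7 in A2 and 3 to 9 in D7, against a median of 3 over the windows of 19974 protein-coding genes. The median window of the 9 genes spanned 103.8 kb and that of all protein-coding genes 124.2 kb, so the windows of the 9 genes were not the longer ones. CTCF had 64 peaks in the 9 windows, from 4 at EGR1 to 11 at FOSL1. STAG1 had 45, STAG2 34 and PDS5A 52, while WAPL had 2, at ANKRD1 and EGR1, and HA had 1, at JUN. The median window of the 9 genes held 7 CTCF, 5 STAG1, 3 STAG2 and 4 PDS5A peaks. Over all protein-coding windows the medians were 5, 2, 1 and 3. The whole WAPL list held only 2667 peaks and the HA list 230. Of all protein-coding windows, 77.7% had no WAPL peak and 99.0% no HA peak.

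**Figure D1:**
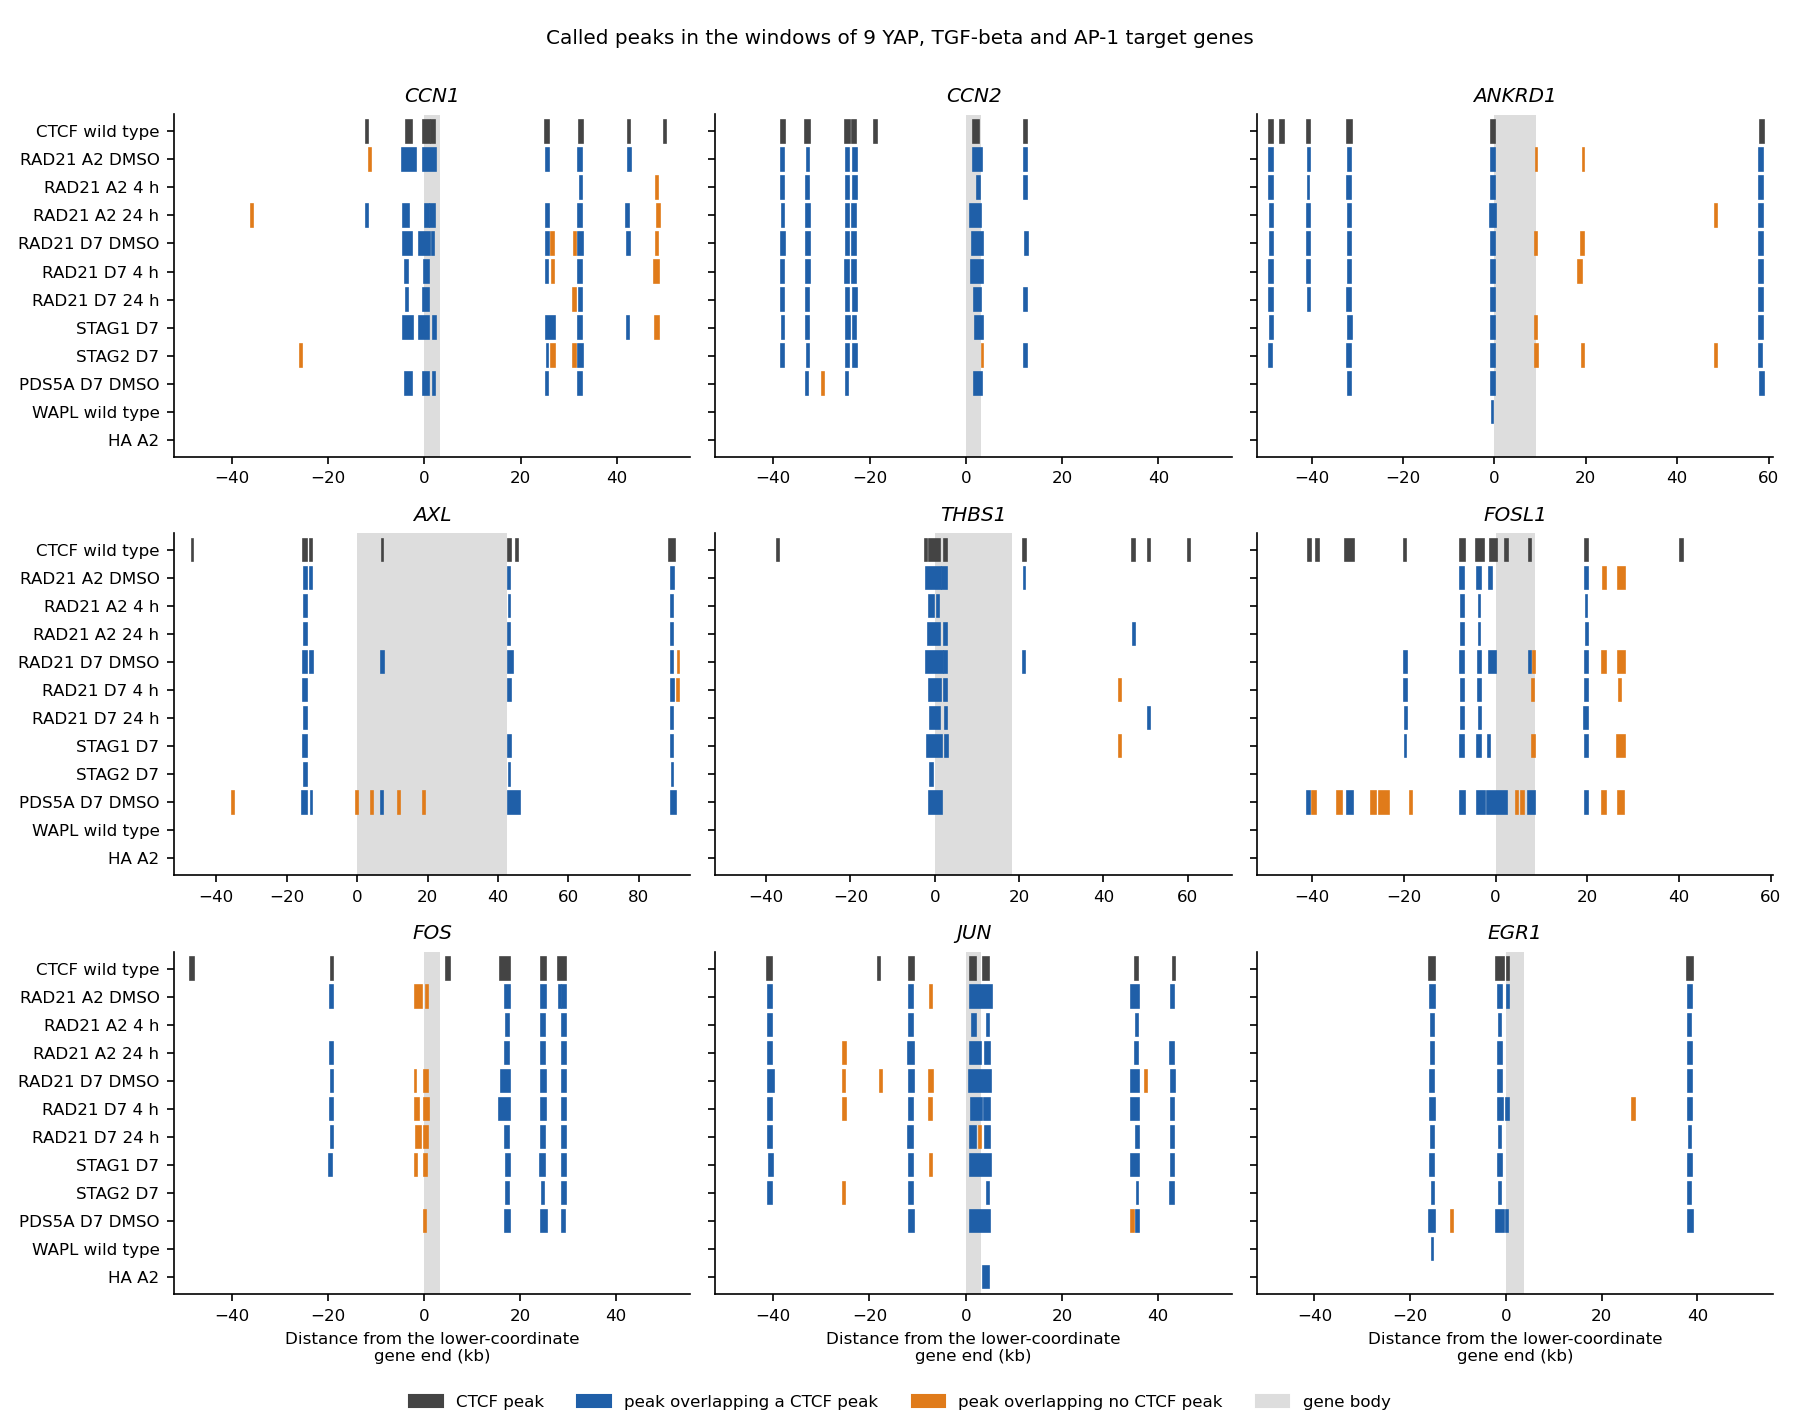
Called peaks in the window of each gene, 1 row per library; the x axis is the distance in kb from the lower-coordinate end of the gene (grey box), and colours separate CTCF peaks, peaks that overlap a CTCF peak and peaks that do not. CCN2 and ANKRD1 show the same columns of CTCF-overlapping peaks in nearly every RAD21 row, while the CTCF-free peaks, 8 in A2 DMSO and 15 in D7 DMSO, are missing from most rows after dTAGV-1.

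RAD21 peaks in the windows were fewer after dTAGV-1 in both clones. In A2 there were 49 in DMSO, 32 after 4 h and 43 after 24 h, that is 0.653 and 0.878 times the DMSO number, against 0.649 and 0.720 times over all peaks of the lists. In D7 there were 58, 49 and 40, that is 0.845 and 0.690 times, against 1.04 and 0.802 times over all peaks. The lowest count thus came at 4 h in A2 and at 24 h in D7. In D7 at 4 h the windows held fewer peaks than in DMSO while the list as a whole, as called, held more. The background pileup was 4.05 at 4 h and 3.00 in DMSO. With pileups scaled to a common background, the whole list also held fewer, 34085 at 4 h and 36504 in DMSO. The windows then held 45 and 55.

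Most of these peaks overlapped CTCF, and the share was higher where peaks were fewer. In A2 the share was 83.7% in DMSO (41 of 49, interval 71.0 to 91.5), 96.9% after 4 h (84.3 to 99.4) and 90.7% after 24 h (78.4 to 96.3). In D7 it was 74.1% (43 of 58, 61.6 to 83.7), 75.5% (61.9 to 85.4) and 90.0% (76.9 to 96.0). The shares over whole lists were 85.9%, 97.9% and 90.7% in A2 and 83.1%, 78.2% and 90.7% in D7, inside the intervals of the 9 windows in each list. CTCF-free peaks numbered 8, 1 and 4 in A2 and 15, 12 and 4 in D7. In A2 they lay in the windows of 5 genes in DMSO (27.1% of protein-coding windows), 1 at 4 h (1.90%) and 3 at 24 h (9.26%), and in D7 of 6 (30.7%), 8 (44.5%) and 3 genes (13.9%). They were low peaks: their fold enrichment over local background, as the authors called it, was 3.55 to 5.62 in A2 DMSO and 2.89 to 8.06 in D7 DMSO, where CTCF-overlapping peaks reached 86.9 and 73.2.

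**Figure D2:**
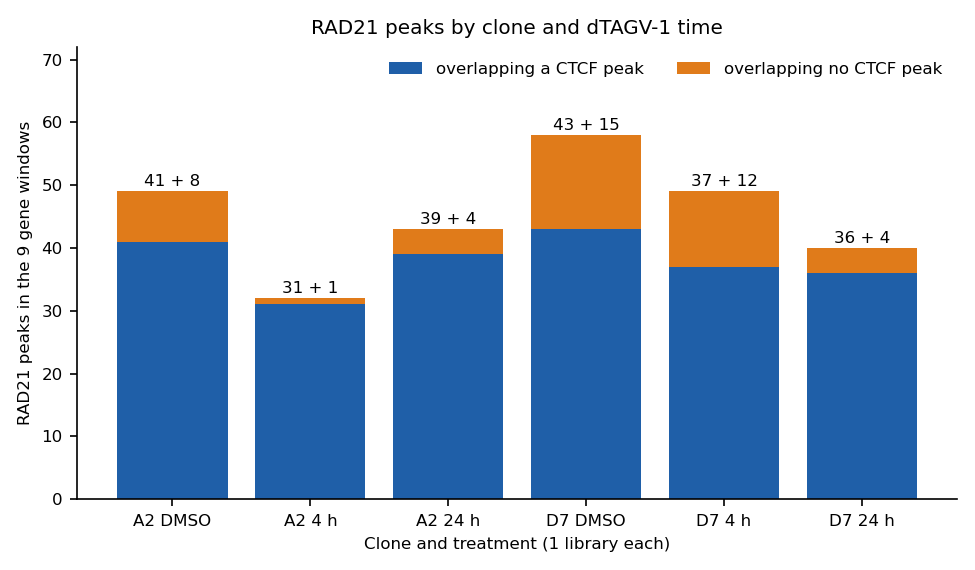
Number of RAD21 peaks in the 9 windows in each of the 6 RAD21 libraries, split by overlap with a wild-type CTCF peak (bars start at 0, 1 library each). CTCF-free peaks drop from 8 to 1 in A2 by 4 h, and in D7 from 15 to 12 by 4 h and to 4 by 24 h.

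A DMSO peak was called lost when no peak of the treated list of the same clone overlapped it by at least 1 bp. In A2 at 4 h, 20 of 49 were lost, against 37.8% of all peaks; at 24 h 14 of 49, against 36.0%. In D7 at 4 h, 13 of 58 were lost, against 20.0%, and at 24 h 21 of 58, against 31.2%. In all 4 comparisons the share over the whole list lay within the interval of the 9 windows.

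The CTCF classes parted in 3 of the 4 comparisons. In A2, 12 of 41 CTCF-overlapping peaks were lost at 4 h (28.5% of all peaks of that class) and 8 of 8 CTCF-free peaks (94.8%). At 24 h the losses were 6 of 41 (29.0%) and 8 of 8 (78.6%). The 85.4% of CTCF-overlapping peaks retained at 24 h (interval 71.6 to 93.1) stood beside 71.0% over the list. The retained share was 70.7 percentage points higher with CTCF than without at 4 h (interval 34.9 to 82.4) and 85.4 points higher at 24 h (50.1 to 93.1). None of the 4 CTCF-free peaks present in A2 at 24 h overlapped a CTCF-free DMSO peak.

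In D7, 10 of 15 CTCF-free peaks were still called at 4 h and 3 at 24 h. At 4 h, 8 of 43 CTCF-overlapping peaks were lost (13.9% of all of that class) and 5 of 15 CTCF-free peaks (49.7%), a difference of 14.7 points whose interval, −8.21 to 41.2, includes 0. At 24 h the losses were 9 of 43 (22.5%) and 12 of 15 (74.2%), a difference in retention of 59.1 points (30.1 to 75.1). Retention of CTCF-free peaks in D7 at 4 h was 66.7% as called. With both lists cut at a −log10 q of at least 10 it was 37.5% (3 of 8), and weaker treated peaks counted as lost. It was 36.8% (7 of 19) when summits had to lie within 200 bp, both for CTCF overlap and between lists. With pileups scaled to the same background it was 50.0% (7 of 14). Whether the clones differ in how fast NIPBL was removed was not tested.

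**Figure D3:**
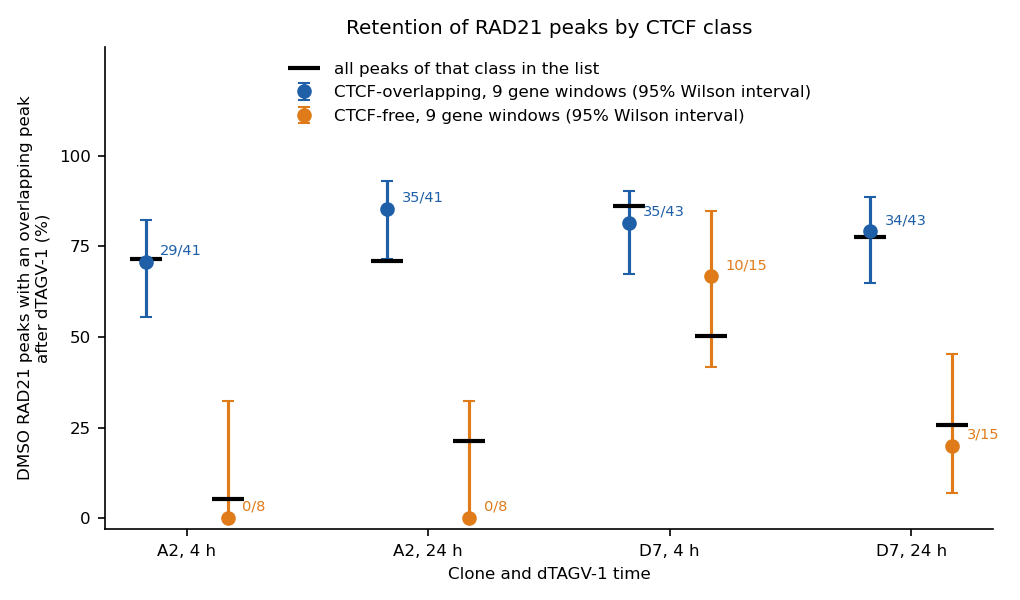
Share of DMSO RAD21 peaks (%) with an overlapping peak after dTAGV-1, by clone, time and CTCF class; points are the 9 windows with 95% Wilson intervals and counts, and black bars are all peaks of that class in the list. CTCF-free points lie at 0 of 8 in A2 at both times, and at 10 of 15 and then 3 of 15 in D7.

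Peak height moved with the class. All CTCF-free DMSO peaks in the windows had a fold under 10. Among peaks under that height in A2 at 4 h, 3 of 12 with CTCF and 0 of 8 without were retained, against 28.0% and 4.57% over the list. In A2 at 24 h it was 7 of 12 and 0 of 8, against 39.4% and 20.6%. In D7 at 4 h it was 6 of 14 and 10 of 15, in the opposite order to the 69.0% and 49.8% over the list. In D7 at 24 h it was 7 of 14 and 3 of 15, against 53.1% and 25.1%. Among CTCF-overlapping peaks of fold 10 or more, 26 of 29 were retained in A2 at 4 h, 28 of 29 at 24 h, and in D7 29 of 29 and 27 of 29. The part of height in the difference between classes was not tested beyond this split.

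Merged over the 6 RAD21 lists, the windows held 46 CTCF-overlapping sites and 20 CTCF-free sites. Of the former 27 were in all 6 lists, against 46.8% of such sites over the whole lists, and of the latter 0, against 0.838%. The DMSO lists of the clones shared 38 of the CTCF-overlapping sites (71.1% over the whole lists) and 7 of the CTCF-free sites (21.2%). New peaks were few: 1 of 32 in A2 at 4 h had no DMSO peak under it (3.64% over the list), 6 of 43 at 24 h (10.8%), 3 of 49 in D7 at 4 h (22.7%) and 1 of 40 at 24 h (13.5%). Their highest fold was 5.44.

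Among the YAP targets, CCN1 kept the smallest part of its CTCF-overlapping peaks in A2 at 4 h. CCN1 encodes a secreted matricellular protein that binds integrins. Of its 5 CTCF-overlapping DMSO peaks in A2, 1 was retained at 4 h and 5 at 24 h. The peak on the gene, 636 bp from the lower gene end, had a fold of 15.3 in A2 DMSO, no peak at 4 h and 7.16 at 24 h; in D7 it was 20.2, 6.76 and 10.2. The peak in the neighbouring gene DDAH1 had 17.3, no peak and 6.88 in A2, and 9.44, 5.20 and 4.12 in D7. The site that stayed in all 6 lists, chr1:85612639-85613600, lay 29317 bp beyond the higher gene end, with 18.2, 11.3 and 18.2 in A2 and 27.8, 14.3 and 15.1 in D7. Some of its CTCF-free sites were called after dTAGV-1: the site 45225 bp beyond that end had 5.07 and 4.43 in A2 at 4 h and 24 h with none in DMSO, and 2.98 and 7.47 in D7 in DMSO and at 4 h. The site 28098 bp beyond it had 3.72 in D7 DMSO and 4.83 in D7 at 24 h. Folds of different lists are set side by side as each list's own value, and no change is read from them where a peak was called in both.

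CCN2 and ANKRD1 kept most of their sites. CCN2, a matricellular protein induced by both YAP and TGF-beta, had 6 sites, all with CTCF, and 5 were in all 6 lists. Its strongest, chr6:131909872-131910526 in D7 DMSO, lay 41198 bp downstream of the start, at 31.5, 27.4 and 16.2 in A2 and 36.8, 15.1 and 34.4 in D7. The peak with its summit 707 bp inside the gene had 13.4, 6.02 and 6.09 in A2 and 17.6, 15.5 and 13.3 in D7. This peak reached the sequence with TEAD motifs printed above in both DMSO lists and in D7 at 4 h. It did not reach that sequence in A2 at 4 h or 24 h, or in D7 at 24 h. Its called edge nearest the start lay at 131951076, 131951355 and 131951296 in those lists, in that order. The sequence begins at 131951373, so at 24 h the edges fell only just short, and no difference in binding is read from them. ANKRD1, a nuclear ankyrin-repeat protein and a common YAP readout, had 5 CTCF-overlapping sites, all in all 6 lists, and 3 CTCF-free sites, none in all 6. Its strongest, chr10:90911320-90912284, lies at the downstream end of the gene, at 55.4, 28.4 and 108 in A2 and 60.3, 42.2 and 52.0 in D7.

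The start of ANKRD1 bore a low CTCF-free peak in DMSO alone. It covered the TEAD-motif sequence printed above, with its summit at −151 bp in A2 and −175 bp in D7. The fold was 4.49 in A2 DMSO, from 16 fragments over a background of 2.79, and 3.20 in D7 DMSO, from 26 over 7.43. None of the 4 dTAGV-1 lists held a peak there. STAG1 had one of 8.40 and STAG2 one of 5.55, both from 24 fragments, while CTCF and PDS5A had none. Over the average background a call needed at least 12 fragments in A2 at 4 h, 11 at 24 h, and 13 and 12 in D7. A call needs more where the local background is higher, as in D7 DMSO here, at 7.43 against an average of 3.00. With so few fragments, a site just under the calling threshold and an empty site cannot be told apart in the lists.

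AXL encodes a receptor tyrosine kinase for GAS6. Its strongest peak, chr19:41203972-41204962, lay at −14742 bp in CYP2S1 and was in all 6 lists, at 86.9, 28.3 and 41.0 in A2 and 65.3, 68.5 and 30.1 in D7. A peak downstream of the gene, 35662 bp from its second start, had 19.9, 6.01 and 4.97 in A2 and 28.2 and 11.5 in D7, with none in D7 at 24 h; 28.2 was the highest fold of any peak lost there. At the AXL starts RAD21 was called in D7 DMSO only, at 3.14.

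THBS1, which encodes thrombospondin 1, a matrix protein that activates latent TGF-beta, had the highest RAD21 peak of the 9 genes at a start site. The summit lay at −744 bp in D7 DMSO, and the peak was in all 6 lists, at 81.4, 30.1 and 87.3 in A2 and 47.6, 121 and 79.3 in D7. CTCF there had a fold of 130. Its other 4 sites were low, at 4.01 to 5.44, and none was in more than 2 lists. The 2 of its 3 peaks lost in A2 at 4 h had DMSO folds of 8.33 and 5.04.

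Of the AP-1 genes, FOSL1 encodes the FOS family member FRA1. Its strongest peak, chr11:65884388-65885242 in FIBP, had 43.4, 7.13 and 8.85 in A2 and 33.3, 19.8 and 7.48 in D7. Its 3 CTCF-overlapping sites found in all 6 lists had 2.85 to 8.85 in the A2 lists after dTAGV-1. The CTCF-free peak in the gene, −157 bp from the higher gene end, was called for RAD21 in D7 only, at 4.95 in DMSO and 3.39 at 4 h. A CTCF-overlapping peak −925 bp from the lower gene end, in CCDC85B, had 6.77 in A2 DMSO and 4.10 in D7 DMSO and was in no dTAGV-1 list. The window holds 10 other protein-coding genes, so its peaks cannot be assigned to FOSL1.

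FOS encodes a subunit of AP-1, and its start carried no CTCF peak. RAD21 lay there in 4 lists, at 3.78 in A2 DMSO and at 4.32, 3.33 and 3.33 in D7 in DMSO, at 4 h and at 24 h; neither A2 list after dTAGV-1 had it. The CTCF-free site at −1429 bp followed the same pattern, at 4.96 in A2 DMSO and 4.61, 4.61 and 4.00 in D7. These were 2 of the 3 CTCF-free peaks that D7 retained at 24 h. The strongest FOS peak, chr14:75294772-75296732, lay 17424 bp downstream with CTCF, at 66.9, 22.9 and 44.6 in A2 and 73.2, 63.9 and 31.2 in D7.

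JUN encodes the other subunit of AP-1. Its strongest peak, chr1:58768907-58770013, lay 14624 bp downstream of the start, at 32.8, 35.6 and 51.1 in A2 and 64.1, 47.8 and 42.1 in D7. Upstream, with the summit at −1267 bp in D7 DMSO, a CTCF-overlapping site was in all 6 lists at 42.9, 9.90 and 17.0 in A2 and 45.2, 17.6 and 27.9 in D7. The single HA peak in the 9 windows lay there, at a fold of 6.76 and a summit of −1249 bp; the peak names in that list read HA-NIPBL, while the labels do not say which protein carries HA. A CTCF-free peak 10447 bp downstream had the highest fold among the CTCF-free DMSO RAD21 peaks of the windows, 8.06 in D7, with 5.44 at 4 h and none at 24 h; in A2 it was 5.46 in DMSO and absent after dTAGV-1. Another, 28596 bp downstream, was called in A2 only at 24 h, at 3.78, and in D7 at 4.37 in DMSO and 4.52 at 4 h. Within 1 kb of the start a RAD21 summit lay only in D7 at 24 h, 446 bp into the gene in a CTCF-free peak of 4.72; peaks of all other RAD21 lists except A2 at 4 h overlapped that peak, with summits elsewhere.

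EGR1 encodes a zinc-finger factor of the immediate-early response. Its strongest peak, chr5:138449674-138450552, lay at −15326 bp, at 71.9, 11.4 and 14.8 in A2 and 35.1, 47.9 and 11.9 in D7. The site at −1282 bp was in all 6 lists, at 14.3, 4.24 and 7.71 in A2 and 16.8, 19.3 and 6.21 in D7. A low peak in the first 1 kb of the gene was called in A2 DMSO at 4.08 and in D7 at 4 h at 3.66, and in no other RAD21 list. Each of these sites overlapped CTCF.

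**Figure D4:**
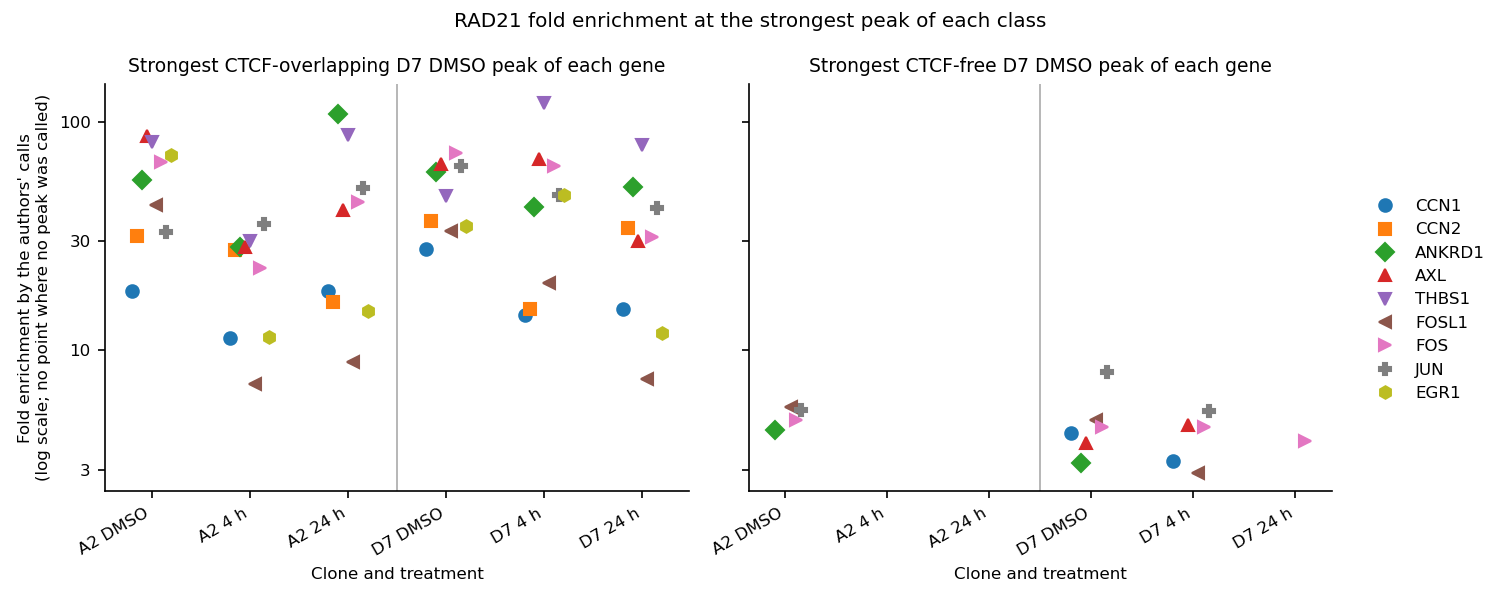
Fold enrichment by the authors' calls (log axis) in the 6 RAD21 libraries at the strongest CTCF-overlapping (left) and CTCF-free (right) D7 DMSO peak of each gene, with no point where no peak was called; CCN2, THBS1 and EGR1 have no CTCF-free peak in D7 DMSO. All 9 CTCF-overlapping peaks have a point in every library, while on the right no point stands in A2 after dTAGV-1 and only that of FOS in D7 at 24 h; weaker CTCF-free sites, such as those of CCN1 and JUN called after dTAGV-1, are not drawn.

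Most of the 9 genes had RAD21 at a start site in DMSO, and fewer had it after dTAGV-1. A RAD21 summit lay within 1 kb of a start in 7 of the 9 genes in A2 DMSO, against 29.5% of 15812 protein-coding genes with a listed start, then in 2 (8.29%) after 4 h and 3 (13.8%) after 24 h. In D7 the numbers were 7 (32.9%), 6 (36.3%) and 5 (19.1%). CCN2 and THBS1 had a summit there in all 6 lists, as did 7.17% of those genes. AXL has 2 listed starts, and either end counted for CCN1 and FOSL1, which gives these genes more room for a summit. FOSL1 counted in A2 DMSO only by a summit −925 bp from its lower end, in CCDC85B. For CTCF it counted only by a summit −70 bp from that end. Which end of FOSL1 is the start was not listed, so these 2 hits may not lie at the start. CTCF lay at 6 starts (35.3%), STAG1 at 6 (29.0%), STAG2 at 3 (5.71%), PDS5A at 7 (36.8%), and WAPL (0.658%) and HA (0.0885%) at 0. At a stricter −log10 q of at least 10, the RAD21 count was 4, 2 and 3 in the A2 lists (DMSO first, then the shorter and the longer dTAGV-1 time), and 5, 3 and 3 in the D7 lists. At the starts, PDS5A had folds of 64.7 at THBS1, 21.4 at CCN1, 20.2 at CCN2 and 8.74 at FOSL1. It had 5.98 at EGR1, 3.72 and 3.38 at AXL and 3.55 at FOS. STAG2 had folds of 25.9 at THBS1, 5.55 at ANKRD1 and 3.24 at CCN2.

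Some of the regions bore long RAD21 peaks, which were singled out after their widths were seen. Of the DMSO peaks in the windows, 5 in each clone were at least 2 kb wide: 2 at CCN1 and 1 each at CCN2, THBS1 and JUN. Peaks of that width made up 1.16% of the A2 DMSO list and 1.74% of the D7 DMSO list. After dTAGV-1 the windows held 0 such peaks in A2 at 4 h (0.0233% of the list), 3 at 24 h (0.290%), 4 in D7 at 4 h (1.09%) and 1 at 24 h (0.415%).

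The 4 in D7 at 4 h included the strongest FOS site, where no DMSO peak was that wide. In all, 6 regions held such a peak in at least 1 RAD21 list. Because 5 of them qualified by a wide DMSO peak, shorter lengths in other lists follow in part from the choice, and nothing is read from them. At JUN the length under RAD21 peaks was 4572 bp in A2 DMSO, 1143 bp at 4 h and 3249 bp at 24 h, and in D7 4564, 3643 and 2700 bp. At THBS1, with the peak beside the main one counted in each list, it was 4611, 1546 and 3480 bp in A2, and 4451, 3478 and 2887 bp in D7. At the CCN1 gene it was 2757, 0 and 1838 bp in A2, and 2629, 1063 and 1189 bp in D7. At the CCN1 region in DDAH1 it was 2958, 0 and 1156 bp in A2, and 2067, 675 and 395 bp in D7.

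At 2 regions some treated lists had more length than DMSO. At CCN2 it was 2030, 679 and 2388 bp in A2 and 2424, 2435 and 1385 bp in D7. At FOS it was 925, 714 and 948 bp in A2 and 1961, 2366 and 811 bp in D7. In D7 the STAG1 and PDS5A peaks at JUN spanned 4478 and 4045 bp, and the STAG2 peak 479 bp. The median peak width over the lists was 641 bp in A2 DMSO, 581 bp at 4 h and 659 bp at 24 h, and 535 bp for STAG2; the part of fragment length and depth in these widths was not tested.

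**Figure D5:**
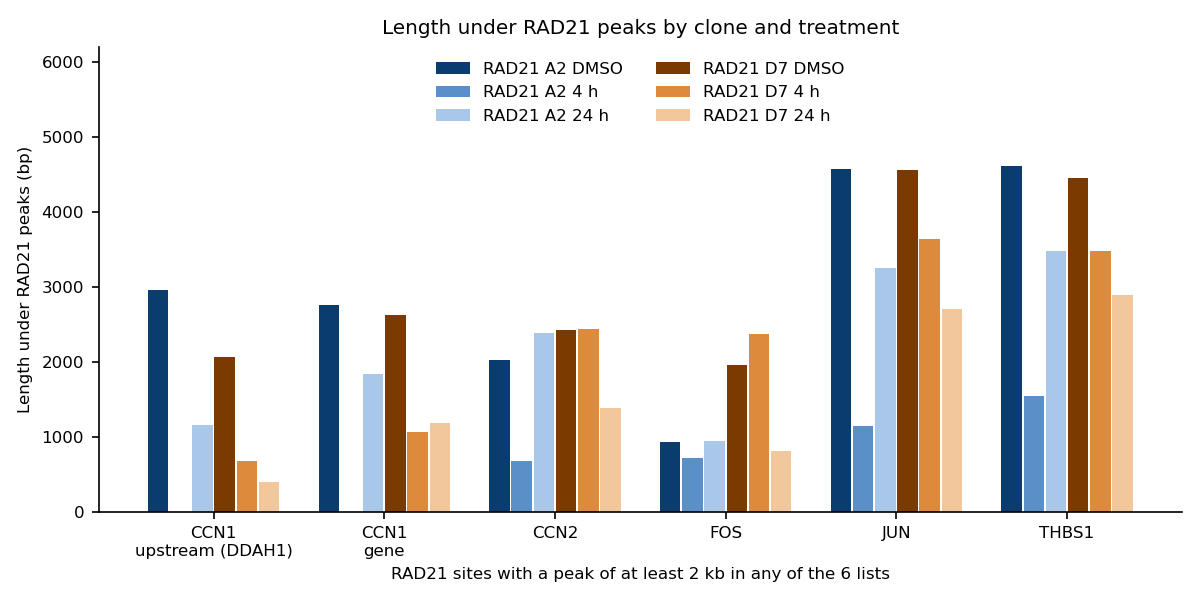
Length in bp under RAD21 peaks in the 6 RAD21 libraries at the 6 merged RAD21 sites that held a peak of at least 2 kb in any of these libraries (bars start at 0, 1 library each; no bar where no peak was called). The A2 values at 4 h run from 0 bp at both CCN1 regions to 1546 bp at THBS1, and at CCN2 and FOS the D7 bar at 4 h is the highest; 5 of the 6 regions qualified by a wide DMSO peak.

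The cohesin partners were compared with RAD21 in D7 DMSO. STAG1 overlapped 37 of 43 CTCF-overlapping RAD21 peaks in the windows (72.8% over the list) and 8 of 15 CTCF-free peaks (38.3%). STAG2 overlapped 27 of 43 (55.9%) and 5 of 15 (21.3%). PDS5A, which regulates the release and acetylation of cohesin, overlapped 31 of 43 (62.6%) and 4 of 15 (22.4%). WAPL, the release factor, overlapped 2 of 43 (8.39%) and 0 of 15 (0.0315%). For STAG1, STAG2 and PDS5A the share was lower without CTCF than with it, as it was over the whole lists.

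CTCF, STAG1 and STAG2 were then set against RAD21 from their own side. Of 45 STAG1 peaks in the windows 44 overlapped a D7 DMSO RAD21 peak (93.6% over the list), of 34 STAG2 peaks 32 (84.0%), and of 64 CTCF peaks 45 (52.8%).

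PDS5A also lay where no RAD21 was called. Of its 52 peaks, 35 overlapped a D7 DMSO RAD21 peak, against 72.7% of the list, and 17 did not. Of these 17, 9 were at FOSL1, 5 at AXL, 2 at EGR1 and 1 at CCN2. The FOSL1 window held 16 PDS5A peaks, a number reached by 0.260% of protein-coding windows, and 0 STAG2 peaks, as did 24.2% of those windows. FOSL1 was chosen for this remark after its counts were seen.

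The same pathways were followed over 35 other genes. Of CTCF-free DMSO peaks in A2, 0 of 34 were retained at 4 h and 3 at 24 h in the windows of 17 YAP-TEAD targets, 0 of 12 and 2 at 8 TGF-beta targets, and 0 of 15 and 3 at 10 AP-1 and immediate-early genes. In D7 the counts were 15 and 4 of 34, 10 and 4 of 16, and 8 and 3 of 18. Of all CTCF-free DMSO peaks, 5.19% were retained in A2 at 4 h and 21.4% at 24 h. In D7 the shares were 50.3% and 25.8%. CTCF-overlapping peaks were retained in the 3 lists at 66.7%, 51.2% and 55.1% in A2 at 4 h, against 71.5% of all CTCF-overlapping peaks of the list, and at 73.6%, 65.9% and 67.3% at 24 h, against 71.0%. In D7 it was 86.9%, 85.0% and 82.6% at 4 h, against 86.1%, and 81.0%, 72.5% and 67.4% at 24 h, against 77.5%. Windows of neighbouring genes in a list can share peaks, and all of these lists share the libraries of the 9 genes.

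RAD21 lay at the start in all 6 lists at 8 of the 35 genes, against 7.17% of protein-coding genes with a listed start, and in both DMSO lists alone at 3, against 2.37%, namely IGFBP3, CCDC80 and JUND, which are named after their pattern was seen. For 6 of the 35 either gene end counted as a start. The highest of the 8 was COL1A1, a collagen chain induced by TGF-beta, at 140, 52.7 and 138 in A2 and 121, 211 and 144 in D7. EGR2, a relative of EGR1, had 57.4, 20.5 and 47.1 in A2 and 52.3, 52.0 and 58.2 in D7. ARHGEF17, a guanine nucleotide exchange factor, had 45.0, 14.4 and 24.3 in A2 and 38.5, 42.9 and 41.6 in D7. MYOF, a membrane-repair protein, and DUSP1, a phosphatase of MAP kinases, each had a fold of 20.0 in D7 DMSO. MYOF had 28.6, 26.7 and 13.9 in A2 and 14.2 and 22.2 in D7 after dTAGV-1. DUSP1 had 19.1, 6.94 and 5.89 in A2 and 10.9 and 9.33 in D7 after dTAGV-1. For COL1A1 and ARHGEF17 the start was taken as either gene end. At each of these 5 genes the D7 DMSO peak overlapped CTCF.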

How the data were processed

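The 12 deposited lists were peak calls per immunoprecipitation in narrowPeak layout. Per the submitters' processing notes, BWA, Picard, SAMtools, bedtools, deepTools and MACS2 were used with hg38 and mm10; their versions and order are not given in the sources used here. The signal column was taken as the authors' fold enrichment, a ratio to local background. The authors' −log10 p and −log10 q stood in the next columns, and the deposited score was not used. Names in the files carry a q of 0.001 for CTCF and 0.01 for the others. The 10 inputs and the spike-in of about 10% NIH/3T3 cells were not used, so a change that left calls in place would not be seen.

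Summits were assigned to windows of 50 kb around gene bodies, and start sites counted within 1 kb. Windows of neighbouring genes may share peaks. The gene table gives no exons, so exon, intron and UTR were not assigned. Peaks matched at an overlap of 1 bp. Shares carry 95% Wilson intervals and differences Newcombe intervals, computed in Python 3.11.15 with numpy 2.4.6, pandas 2.3.3 and scipy 1.17.1, tested on simulated data. Summit pileups were solved from fold and −log10 p, and came out whole within 0.02 in 11 lists but not HA. Named peaks were the highest D7 DMSO RAD21 peak of each CTCF class at each gene and peaks at a start site, of which the text gives some by fold and the rest as counts; of the other genes, at most 6 with RAD21 at the start in all 6 lists, or in DMSO alone, by D7 DMSO fold; 1 gene that this rule names is not reported here. The members, gene lists and rules were chosen with earlier results of these data known. Alternatives varied the window, the q, the overlap, the CTCF list, the start distance and the background pileup.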

Additional observations from a re-analysis of the deposited data

How the results depend on the processing

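Of 126 alternative values of 26 results, 101 stayed within the counting interval or within 1.5 times, among them all 26 with pileups scaled to a common background of 1.87 and kept from a −log10 p of 4.30 up, which matches the background and not the read number (retention without CTCF in D7 at 4 h was then 50.0%) and all 20 with windows of 100 kb. With every RAD21 list restricted to −log10 q values from 10 up, the CTCF-overlapping share was 94.7% in A2 DMSO and 97.2% in A2 at 24 h. It was 87.8% in D7 at 4 h and 100% at 24 h. Start sites numbered 4 in A2 DMSO, 3 in D7 at 4 h and 3 at 24 h. Retention in D7 was 91.9% with CTCF and 37.5% without at 4 h, and 0% without at 24 h. Treated peaks under the limit counted there as lost. With windows of 25 kb, which hold less sequence, there were 19 and 24 peaks in A2 at 4 h and 24 h, and 32 and 25 in D7, and the CTCF share in A2 was 100% at 4 h and 100% at 24 h. With the upper 50% of CTCF peaks by fold, the share was 67.3% in A2 DMSO, 74.4% in A2 at 24 h and 56.9% in D7 DMSO, and retention with CTCF was 84.8% in A2 at 4 h and 90.9% in D7 at 4 h and at 24 h. With summits within 200 bp, both for CTCF overlap and between lists, retention without CTCF in D7 at 4 h was 36.8%. With start sites of 2.5 kb, A2 had 4 at 4 h and 5 at 24 h. The cause of these moves was not tested, apart from the window. No paired analysis was possible because no result comes from a test: each group had 1 library, treated lists were set against the DMSO list of their own clone, and the clones, of different genotypes, were not used as replicates. The CTCF-free classes held 8 and 15 peaks, of 10 to 55 fragments, so their shares have wide intervals, and CTCF was mapped in wild-type cells only, not after dTAGV-1.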

Other observations

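A few distal CTCF-overlapping sites had folds that lay far apart between libraries of the same protein, and were singled out after their values were seen. The site 57994 bp downstream of the ANKRD1 start had 49.3, 51.1 and 4.97 in the DMSO, 4 h and 24 h lists of A2, and 8.18, 9.28 and 31.7 in D7. The site 43990 bp downstream of the JUN start had 29.5, 38.7 and 13.8 in A2 and 18.0, 16.0 and 44.8 in D7. The site 26294 bp downstream of the CCN2 start had 30.3, 38.2 and 7.84 in A2 and 16.8, 11.8 and 31.5 in D7. The site at −9203 bp from the CCN2 start had 25.4, 21.4 and no peak in A2, and 5.25, no peak and 13.3 in D7. At these 4 sites A2 in DMSO and at 4 h and D7 at 24 h had the higher values. The strongest site of ANKRD1 had another order, with its highest value, 108, in A2 at 24 h. The narrowest peaks were 283, 262 and 344 bp in A2 and 337, 336 and 317 bp in D7; whether library properties had a part in these folds was not tested.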
